A study of Cricetulus griseus with 10 samples.

Results

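Septins are GTP-binding proteins that assemble end to end into filaments and rings under the plasma membrane. In mammals a septin complex takes its subunits from groups named after SEPT2, SEPT6, SEPT7 and SEPT9 (the SEPT3 group), and members of the same group can replace each other in the complex. The filaments bind actin, microtubules and membrane, and they are known for their place at the cleavage furrow and midbody of dividing cells and along the stress fibres of cells spread on a surface.

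In the deposited data 5 septin genes, Septin2, Septin4, Septin7, Septin9 and Septin10, stood under calendar dates (02-Sep, 04-Sep, 07-Sep, 09-Sep and 10-Sep), a form that spreadsheet programs give to the older gene symbols. These 5 rows were taken from 25156 features by that spelling, not by any measured value. Of the 13 septin genes in a RefSeq table of the Chinese hamster, 8 had a row under their gene number, and the 5 without one were exactly the 5 numbers written as dates, so each date row has 1 septin that it can be. The table holds 7 date rows in all, and the other 2 are March dates, which belong to another gene family.

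RNA sequencing had been done on CHO-K1, an established cell line from Chinese hamster ovary, labelled wild type, during adaptation to growth in suspension in the serum-free medium SFM4CHO. There were 2 libraries at each of passages 0, 2, 4, 6 and 10 of the adaptation, called P0, P2, P4, P6 and P10 here. The labels leave out how the P0 cells were grown and whether a duplicate is its own culture. A p-value here therefore reflects the spread of these libraries, which may be only technical. Total RNA was taken from whole cultures, and fewer cells that make a transcript and less of it per cell cannot be told apart.

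Values are normalised reads, read counts that the authors divided by a size factor for each library. The libraries held between 8394219 and 16599495 reads, which gave between 9530 and 19569 reads for Septin2 and between 173 and 554 for Septin4, the lowest of the 5. The median difference between duplicates over all tested features was 0.17, 0.15 and 0.13 on the log2 scale at P0, P2 and P4, but 0.43 at P6 and 0.58 at P10. P6 replicate 2 and P10 replicate 1 were left out together in 1 alternative fit, and some results are given with and without them. Which duplicate of P6 or of P10 departs more from the other libraries is not measured here. A feature was called changed when its limma test on log2(normalised reads + 1) had a Benjamini-Hochberg adjusted p under 0.05 over the 13521 features whose mean reached 10. All 5 septins passed that filter in a fit of all 10 libraries, with 1 spread per feature pooled over the passages.

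Against P0, Septin4 and Septin9 were called higher at P2, P4 and P6 and Septin9 was also called higher at P10, while no septin written as a date was called lower. Septin9 reached 2.53 times its P0 level at P6, and Septin4 reached 2.08 times its P0 level at P4. At P6 and P10 both libraries of Septin7 and of Septin10 lay above both P0 libraries, but neither gene passed the adjusted threshold, and no change of Septin2 passed either. The share of all tested features called, in either direction, was 4.15% at P2, 9.24% at P4, 21% at P6 and 17% at P10, and the share called higher was 2.08%, 3.72%, 10.5% and 8.77% in the same order, with 2.07%, 5.52%, 10.5% and 8.25% called lower. Against these shares the septins called higher were 2 of 5 at P2, 2 of 5 at P4, 2 of 5 at P6 and 1 of 5 at P10. The median log2 change of the 5 was 0.44, 0.47, 0.70 and 0.51 at P2, P4, P6 and P10, beside medians over all tested features of 0.01, 0.03, -0.07 and 0.00. These comparisons share the P0 libraries, so they are not separate observations.

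**Figure D1:**
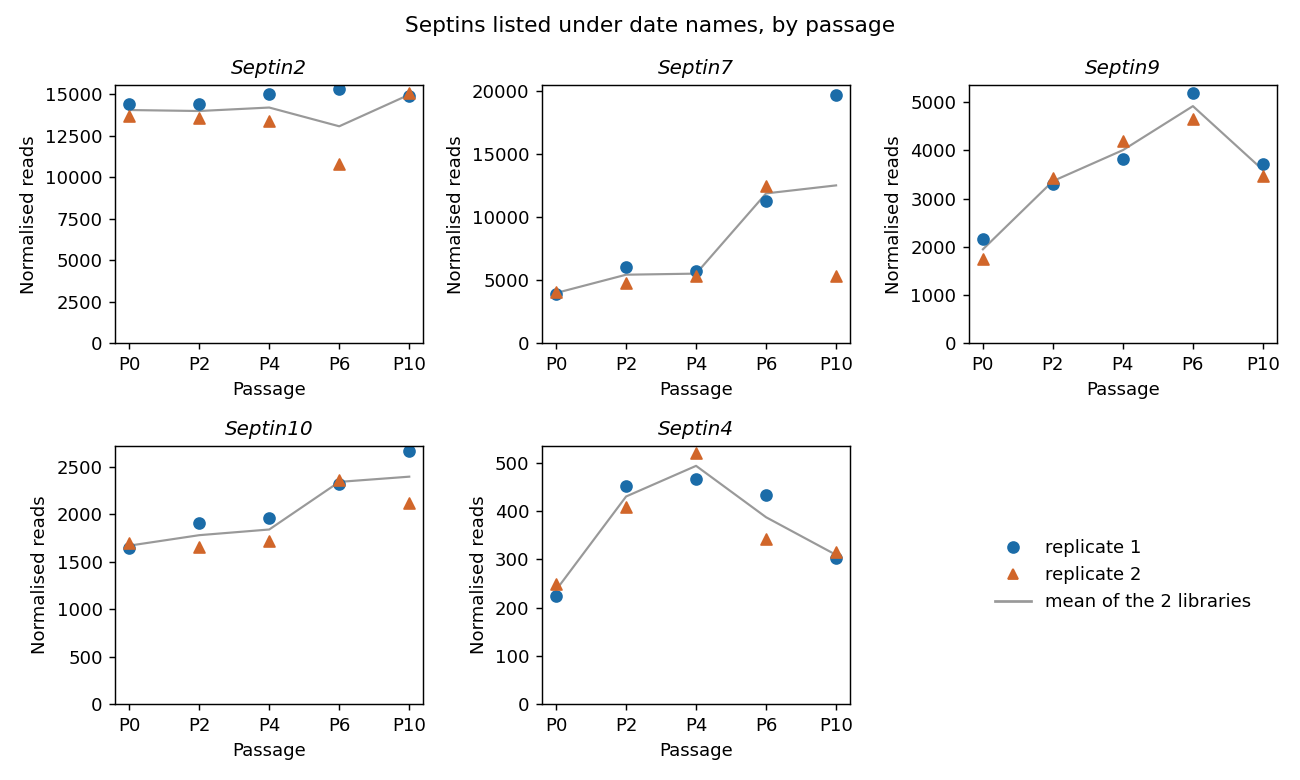
Normalised reads of each septin written as a date, by passage. Each point is 1 library (replicate 1 and replicate 2 have their own marker and colour), the line joins the means of the 2 libraries, the vertical axes start at 0, and passages are evenly spaced. Septin9 lies above both P0 libraries in every later library, and the P10 libraries of Septin7 lie far apart, at 19669 and 5350.

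Septin2 gives its name to its group, and its human protein binds GTP and directs septin filaments to actin bundles. Its normalised reads were 14367 and 13696 in the P0 libraries, 14400 and 13545 in P2, 14966 and 13396 in P4, 15314 and 10795 in P6, and 14871 and 15041 in P10. All libraries but P6 replicate 2 lay in a narrow band, and P10 was the only passage with both libraries above both P0 libraries. The highest library was 1.42 times the lowest, and of all tested features 2.97% had a smaller standard deviation over the 10 libraries (0.15 on the log2 scale). The log2 changes against P0 were -0.01 at P2, 0.01 at P4, -0.13 at P6 and 0.09 at P10, each with a standard error of 0.24. Their limma adjusted p-values were 0.994, 0.983, 0.716 and 0.828, and the 95% interval at P10 ran from -0.45 to 0.63. These intervals do not show that Septin2 stayed the same, but they leave out a change as large as those of Septin9 at P4 and P6.

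Septin4 belongs to the same group as Septin2 and its human gene also encodes ARTS, a short form that binds the caspase inhibitor XIAP. Its normalised reads were 225 and 249 in the P0 libraries, 452 and 409 in P2, 467 and 521 in P4, 434 and 342 in P6, and 303 and 316 in P10. Every later library was above both P0 libraries, and both P10 libraries were below all libraries of P2, P4 and P6. The means were 237 ± 16.9 at P0, 431 ± 30.4 at P2, 494 ± 38.1 at P4, 388 ± 65.1 at P6 and 309 ± 9.29 at P10 (SD, n = 2 each).

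Septin4 was 1.82 times its P0 level at P2 (log2 change 0.86, SE 0.18, limma adjusted p = 0.0389) and 2.08 times at P4 (log2 change 1.06, adjusted p = 0.0107, 95% interval of the ratio 1.56 to 2.78). At P6 the log2 change was 0.70 (adjusted p = 0.0301), and at P10 it was 0.39 (adjusted p = 0.182, 95% interval of the ratio 0.979 to 1.75). In fits that left out 1 of the 10 libraries, the P2 call held in 4, the P4 call in 6 and the P6 call in 3, with highest limma adjusted p-values of 0.316, 0.132 and 0.176. The P2 call was lost without any one library of P0, P2 or P4, the P4 call without any one of P0 or P4, and the P6 call was kept only without P6 replicate 2 or either P10 library. With both P6 replicate 2 and P10 replicate 1 left out, the P10 log2 change was 0.42.

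Septin9 belongs to the SEPT3 group, and its human protein bundles actin and binds microtubules. Its normalised reads were 2154 and 1748 in the P0 libraries, 3298 and 3428 in P2, 3814 and 4195 in P4, 5183 and 4649 in P6, and 3714 and 3474 in P10. All 8 later libraries were above both P0 libraries, the P6 libraries were the highest, and the P10 libraries lay below those of P4 and P6. The means were 1951 ± 287 at P0, 3363 ± 91.5 at P2, 4005 ± 269 at P4, 4916 ± 378 at P6 and 3594 ± 170 at P10 (SD, n = 2 each).

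Septin9 was 1.73 times its P0 level at P2 (log2 change 0.79, SE 0.18, limma adjusted p = 0.0437) and 2.06 times at P4 (1.04, adjusted p = 0.00929). It was 2.53 times its P0 level at P6 (log2 change 1.34, limma adjusted p = 0.00248, 95% interval of the ratio 1.92 to 3.34) and 1.85 times at P10 (0.89, adjusted p = 0.0122, interval 1.40 to 2.44). The P6 call held in all 10 fits that left out 1 library, with a highest limma adjusted p of 0.0297. The P10 call was lost without P0 replicate 1 (limma adjusted p = 0.0600) or P0 replicate 2 (0.103). The P2 call was lost without any one library of P0, P2 or P4 (highest limma adjusted p 0.310), and the P4 call without any one of P0 or P4 (highest 0.123). Between P10 and P6 the log2 change was -0.45, which had an unadjusted limma p of 0.0312 and an adjusted p of 0.516.

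**Figure D2:**
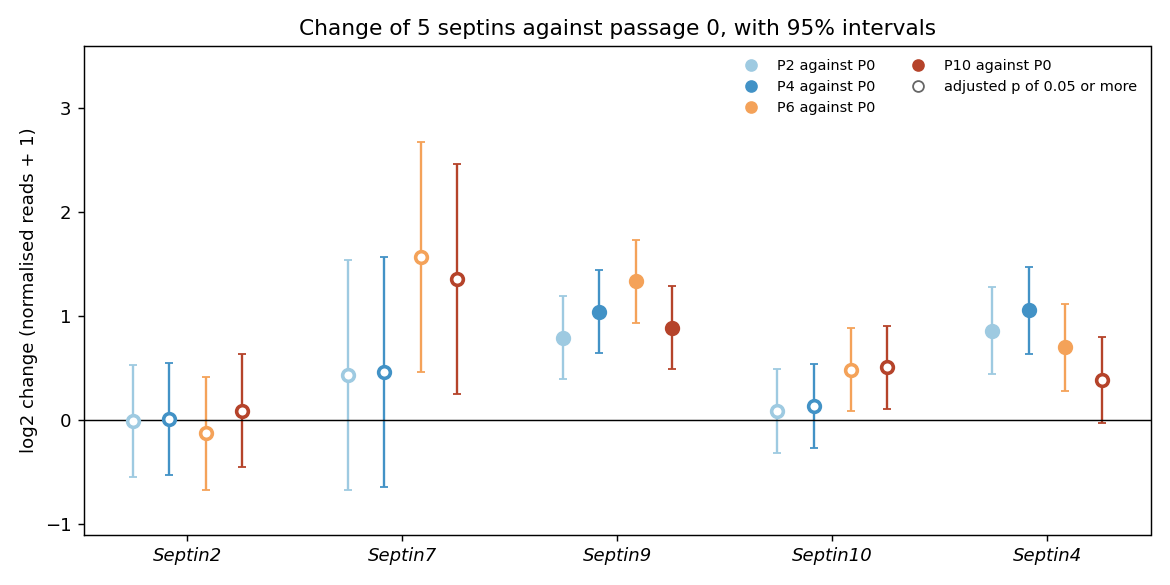
Log2 change of each septin against P0 at P2, P4, P6 and P10, on the scale of log2(normalised reads + 1). Points are limma estimates with 95% intervals, and open points have an adjusted p of 0.05 or more. The filled points are Septin4 at P2, P4 and P6 and Septin9 at all 4 passages, and the intervals of Septin7 are the widest.

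Septin7 is the only member of its group, so other septins are not known to replace it in a complex. Its normalised reads were 3887 and 4103 in the P0 libraries, 6075 and 4810 in P2, 5723 and 5332 in P4, 11261 and 12488 in P6, and 19669 and 5350 in P10. Both P6 libraries were above every library of P0, P2 and P4, but at P10 only replicate 1 was, and replicate 2 lay within the range of P2. The duplicates at P10 differed 3.68 times, and the means were 3995 ± 153 at P0, 5442 ± 894 at P2, 5528 ± 276 at P4, 11875 ± 868 at P6 and 12510 ± 10125 at P10 (SD, n = 2 each).

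For Septin7 the log2 change against P0 was 0.44 at P2 (limma adjusted p = 0.728) and 0.47 at P4 (adjusted p = 0.625). It was 1.57 at P6 (SE 0.49, ratio 2.97, 95% interval 1.38 to 6.39), with an unadjusted limma p of 0.0108 and an adjusted p of 0.0508, and 1.36 at P10 (ratio 2.57, adjusted p = 0.0882). The duplicates of this gene were farthest apart at P10, and the spread pooled over the passages, used at P6 too, rests largely on them. The P10 value itself depended on which duplicate was kept, with a log2 change of 2.30 without P10 replicate 2 and of 0.42 without P10 replicate 1. With both P6 replicate 2 and P10 replicate 1 left out, the log2 changes were 1.50 at P6 and 0.42 at P10. Such fits remove the wide P10 spread, so their p-values are not given. Between P6 and P4 the log2 change was 1.10, with an unadjusted limma p of 0.0508 and an adjusted p of 0.196.

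Septin10 belongs to the SEPT6 group. Its normalised reads were 1641 and 1697 in the P0 libraries, 1905 and 1654 in P2, 1959 and 1719 in P4, 2320 and 2360 in P6, and 2670 and 2120 in P10. The P6 and P10 libraries lay above all libraries of P0, P2 and P4, and the P2 libraries overlapped those of P0. The log2 change was 0.09 at P2 (limma adjusted p = 0.866), 0.14 at P4 (0.706), 0.49 at P6 (0.0801) and 0.51 at P10 (0.0791), with a standard error of 0.18. The ratio to P0 was 1.40 at P6 (95% interval 1.06 to 1.85) and 1.43 at P10 (1.08 to 1.88). Without P10 replicate 2 the P10 log2 change was 0.68 and without P10 replicate 1 it was 0.35, so its size depended on which duplicate was kept. The P6 change ranged from 0.46 to 0.51 in the fits that left out 1 library.

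At P10 all 5 septins had both libraries above both P0 libraries, as did 4 at P6, 4 at P4 and 3 at P2. The count with both libraries below both P0 libraries was 0 at each passage. The share of all tested features whose libraries did not overlap with those of P0, in either direction, was 54.3% at P10, 67.7% at P6, 72.4% at P4 and 67.1% at P2. No septin was called between neighbouring passages, and 0% of all tested features were called by limma between P4 and P2, between P6 and P4 or between P10 and P6. At an unadjusted limma p under 0.05 the count of the 5 septins was 0, 0 and 1 for these steps, where 2.11%, 25.5% and 9.41% of all tested features were that low, and edgeR and DESeq2 called 0 at each. A test of any difference between the 5 passages called 2 of 5 (limma F test, adjusted p of 0.0311 for Septin4 and 0.0141 for Septin9), where 11% of all tested features were called.

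The balance of septin transcripts within a library does not depend on how libraries are scaled to each other. The ratio of Septin7 to Septin2 reads was 0.271 and 0.300 in the P0 libraries, 0.422 and 0.355 in P2, 0.382 and 0.398 in P4, 0.735 and 1.16 in P6, and 1.32 and 0.356 in P10. All later libraries were above both P0 libraries, but P10 replicate 2 lay with P2 and P4 and not with P6. The ratio of Septin9 to Septin2 was 0.150 and 0.128 in the P0 libraries, 0.229 and 0.253 in P2, 0.255 and 0.313 in P4, 0.338 and 0.431 in P6, and 0.250 and 0.231 in P10. This ratio was above both P0 libraries in all 8 later libraries and had its highest values at P6. The ratio of Septin7 to Septin9, from 1.27 to 2.69 in 9 libraries, was 5.30 in P10 replicate 1 and 1.54 in its duplicate. Reads were not divided by transcript length, so these ratios compare libraries and not the amounts of 2 proteins or transcripts.

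**Figure D3:**
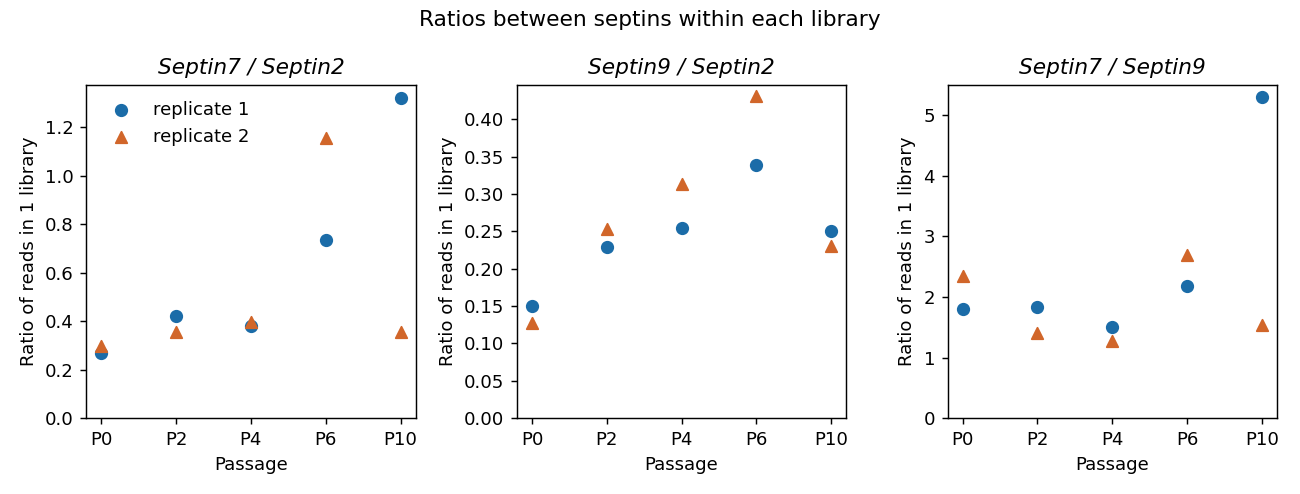
Ratios of reads between septins within 1 library, by passage (evenly spaced), with 1 point per library and its replicate number shown by the marker. The ratio of Septin7 to Septin2 is 0.735 and 1.16 at P6 but 1.32 and 0.356 in the P10 duplicates, while that of Septin9 to Septin2 is similar in both P10 libraries (0.250 and 0.231).

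Together the 5 septins took 0.199% and 0.176% of the reads of the P0 libraries, 0.225% and 0.192% in P2, 0.218% and 0.208% in P4, 0.322% and 0.325% in P6, and 0.381% and 0.203% in P10. Both P6 libraries and P10 replicate 1 were above all others, and P10 replicate 2 lay among the P2 and P4 libraries. Septin2 held 52.0% and 52.2% of the reads of all 13 septins at P0 and between 27.8% and 47.6% in the later libraries, and Septin7 held 14.1% and 15.6% at P0 and between 15.1% and 40.3% later. The lowest share of Septin2 was that of P6 replicate 2, the library in which Septin2 itself had its fewest normalised reads.

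The other 8 septins moved in both directions. Of these 8, 1 was called higher and 1 lower at P2, 0 higher and 2 lower at P4, 2 higher and 3 lower at P6, and 0 higher and 2 lower at P10, with median log2 changes of -0.38, 0.03, -0.22 and -0.40. The full limma fit called 4.15%, 9.24%, 21% and 17% of all tested features in either direction at these passages. DESeq2 called 1 of them higher at P4 and 1 at P10, edgeR 0 and 0, and 1 and 1 had a higher value with an unadjusted limma p under 0.05. Without P6 replicate 2 and P10 replicate 1, 2 were called higher at P2, 3 at P4, 3 at P6 and 1 at P10, beside 3, 3, 3 and 2 called lower. That setting called 34.1%, 43.1%, 48.8% and 46.3% of all tested features in either direction at P2, P4, P6 and P10. The median at P6 was -0.02 without P6 replicate 1 and -0.91 without P6 replicate 2, and that at P4 was 0.18 without P4 replicate 1 and -0.24 without P4 replicate 2.

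In the SEPT2 group, Septin5, known for its part in vesicle release in neurons and platelets, had 106 and 89.9 normalised reads at P6 and 119 and 187 at P10, against 396 and 323 at P0. It was lower than P0 at both passages, with log2 changes of -1.86 at P6 (limma adjusted p = 0.00338) and -1.26 at P10 (0.0156). Septin1, of the same group, had 13.3 and 10.1 at P6 and 13.5 and 19.5 at P10, against 54.9 and 76.2 at P0 (log2 changes -2.38 and -1.93, limma adjusted p = 0.00421 and 0.00997). The P6 calls of Septin1 and Septin5 held in all 10 fits that left out 1 library, and their P10 calls in 8 of 10, with highest limma adjusted p-values of 0.0808 and 0.136. At P6, then, Septin4 of this group was called higher, Septin1 and Septin5 were called lower, and Septin2 was called in neither direction.

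In the SEPT3 group, Septin3, known mainly from neurons, had 20.8 and 41.3 normalised reads in P2, 18.8 and 17.5 in P4, 24.3 and 25.8 in P6 and 78.5 and 78.8 in P10, against 138 and 90.5 in P0. It was called lower at P2 (log2 change -1.89, limma adjusted p = 0.0277), P4 (-2.56, 0.00499) and P6 (-2.11, 0.00717), and the P10 change was -0.50 (0.391). These calls held in 4, 7 and 9 of the 10 fits that left out 1 library, with highest limma adjusted p-values of 0.249, 0.0692 and 0.0779. Septin9, of the same group, was called higher at these 3 passages. Septin12, known from sperm in mouse and human, ranged from 4.70 to 24.7 normalised reads and was not called in any comparison with P0.

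In the SEPT6 group, Septin11 had 5978 and 5478 normalised reads at P2 and 4684 and 4556 at P6, against 2642 and 2462 at P0. It was called higher at P2 (log2 change 1.17, limma adjusted p = 0.0308) and P6 (0.86, 0.0342), in 4 and 2 of the 10 fits that left out 1 library (highest limma adjusted p 0.254 and 0.168). At P10 its duplicates were 4384 and 2660, and the change of 0.42 did not pass (limma adjusted p = 0.251). Septin6 had 1922 and 2584 at P6, against 1112 and 937 at P0 (log2 change 1.13, limma adjusted p = 0.0159, passing in 7 of 10 such fits, highest 0.110). At P10 Septin6 had 2186 and 1377 (log2 change 0.76, limma adjusted p = 0.0633), so that replicate 1 was the higher duplicate, as for Septin7, Septin10 and Septin11. Septin8 and Septin14 were not called in any comparison with P0.

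**Figure D4:**
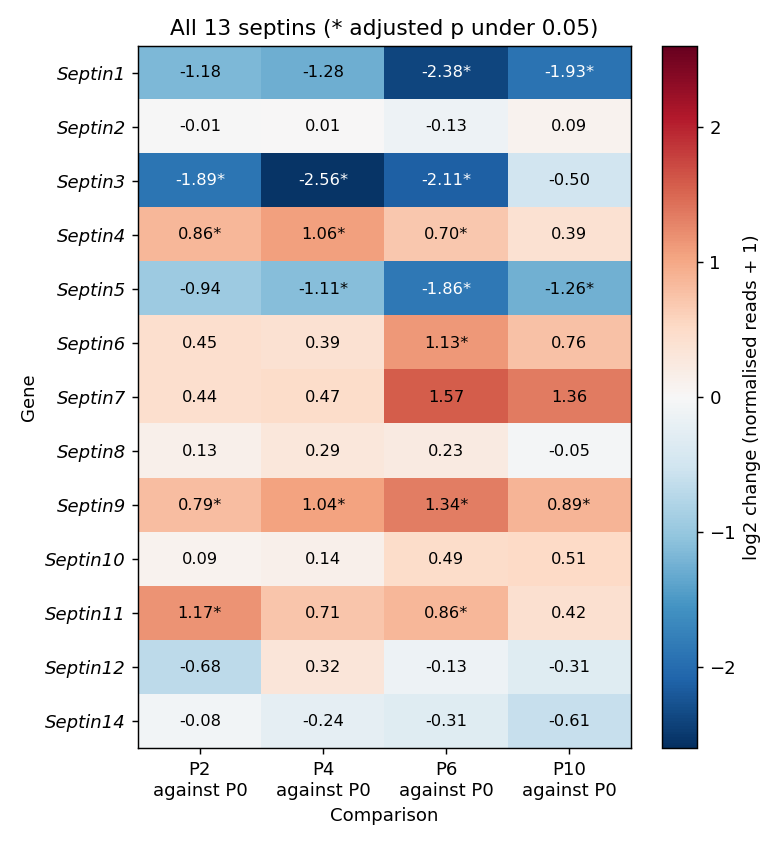
Log2 changes of all 13 septins (rows) against P0 at P2, P4, P6 and P10 (columns), as colour on the scale of log2(normalised reads + 1), with an asterisk for an adjusted p under 0.05. Septin9 has an asterisk in all 4 columns, and Septin1, Septin3 and Septin5 are lower where they have one.

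The genes whose pattern over the 10 libraries was most like that of each septin were taken among 9231 named features with a mean of at least 50, by the root mean square difference of log2 values centred on their own mean. For Septin7 these were Rp9 (0.115), Esf1 (0.126) and Anp32a (0.132), beside a root mean square of 0.735 for Septin7 around its own mean. They too had 1 high and 1 low P10 library, with 977 and 304 normalised reads for Rp9, 2987 and 975 for Esf1 and 3252 and 1092 for Anp32a. For Septin9 the nearest were Ifngr1 (0.135), Por (0.138) and St3gal5 (0.138), and for Septin4 they were Adam9 (0.0992), Mx2 (0.110) and St3gal3 (0.126). For Septin10 they were Gramd3 (0.0569), Xiap (0.0652) and Zcchc8 (0.0678), and for the nearly level Septin2 they were Rpn1 (0.0625), Kpna6 (0.0648) and Dtd2 (0.0681). These are descriptions over the same libraries that show the pattern.

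Neighbours were counted along the RefSeq table among tested genes only, so genes without a tested row were passed over. Beside Septin7, Eepd1, the next on one side, was called higher at P6 (log2 change 0.87, limma adjusted p = 0.0107) and P10 (0.61, 0.0402). On the other side, Herpud2, the second gene away, was called lower at P6 (-1.29, 0.0107) and P10 (-1.42, 0.00817). On the Eepd1 side LOC100757754, the third gene away, was also called lower at P6 (-1.95, 0.00966) and P10 (-2.28, 0.00596), and the other 3 of the 6 nearest genes were not called at either passage. Among all tested features 21% were called at P6 and 17% at P10. Flanks of the other septins held P6 calls too, which are given here, and the rest of the 6 nearest tested genes of each were not called at P6. Lower were Sec14l1 beside Septin9 (-2.30, limma adjusted p = 0.000815), and Tex14 (-4.41, 0.00929) and Mtmr4 (-1.25, 0.0474) beside Septin4. Ano7 near Septin2 (-1.79, 0.0243) and P4ha1 near Septin10 (-0.61, 0.0285) were also lower, and Trim37 near Septin4 was higher (0.97, 0.0181).

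Septins meet Cdc42, a small GTPase of cell polarity, through the Borg proteins (Cdc42ep genes), which bind both. Of 5 tested genes of this list, 1 was called higher at P2, 1 at P4, 2 at P6 and 2 at P10, with median log2 changes of 0.58, 0.59, 0.68 and 0.68. Among all tested features the shares called higher were 2.08%, 3.72%, 10.5% and 8.77%. The count called lower was 0 at each passage by limma, edgeR and DESeq2, with 1 gene at P10 at an unadjusted limma p under 0.05. Cdc42ep3 had 1155 and 1101 normalised reads in P2, 777 and 800 in P4, 804 and 838 in P6 and 704 and 548 in P10, against 368 and 408 in P0. All its later libraries were above P0 and those of P2 were the highest. Its log2 changes were 1.54 at P2 (limma adjusted p = 0.00234), 1.02 at P4 (0.00914), 1.08 at P6 (0.00493) and 0.68 at P10 (0.0286), and the P2 call held in all 10 fits that left out 1 library (highest 0.0464). The P4 call was lost without any one library of P0 or P4 (highest limma adjusted p 0.110), the P6 call without P0 replicate 1 (0.0605), and the P10 call held in 3 of the 10 fits (highest 0.192). Cdc42 itself had 6818 and 6570 at P6 and 7668 and 6242 at P10, against 3551 and 3560 at P0. Its log2 changes were 0.91 at P6 (limma adjusted p = 0.0119) and 0.96 at P10 (0.0106), each held in 8 of 10 such fits with highest limma adjusted p-values of 0.0955 and 0.0962. Cdc42ep2 had between 14.3 and 69.9 normalised reads and was not called. Without P6 replicate 2 and P10 replicate 1, 3 of the 5 genes were called higher in each comparison with P0, where that setting called 16.7% to 26% of all tested features higher. Without P0 replicate 1 the limma count was 0 at P4, P6 and P10, without P0 replicate 2 it was 0 at P4 and P10, without either P4 library it was 0 at P4, and without P6 replicate 1 the median at P6 was 0.10.

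**Figure D5:**
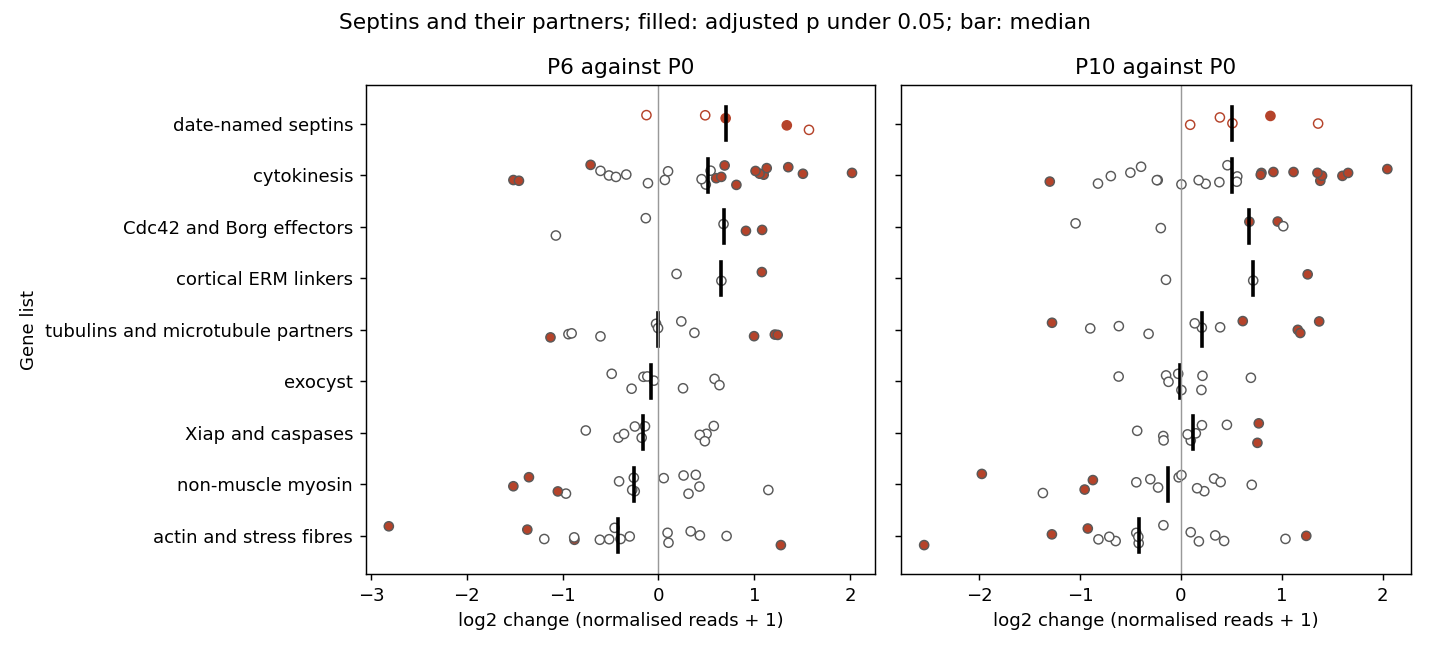
Log2 changes at P6 and P10 against P0, on the scale of log2(normalised reads + 1), for the septins and the lists of related genes (rows). Each point is 1 gene, filled where its adjusted p is under 0.05, and the bar is the median of the list. The cytokinesis list has most of its filled points above 0, and the myosin list has filled points only below 0.

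The cytokinesis list holds genes of the cleavage furrow, the midbody and abscission, where septins also act. Of 24 tested members, 0 were called at P2 (by limma, edgeR or DESeq2, with 2 higher and 3 lower at an unadjusted limma p under 0.05), 3 were called lower at P4, 11 higher and 3 lower at P6, and 10 higher and 1 lower at P10. The median log2 changes were 0.11, 0.09, 0.52 and 0.51 at P2, P4, P6 and P10. The shares of all tested features called higher were 10.5% at P6 and 8.77% at P10. Those called lower were 5.52% at P4, 10.5% at P6 and 8.25% at P10. The P10 median was 0.31 without P10 replicate 1 and 0.70 without P10 replicate 2. Without either 1 of the P0 libraries, 1 member was called higher at P6 and 2 at P10, and the count at P6 was 5 without P6 replicate 1 and 7 without P6 replicate 2. Kif20a, a kinesin of the central spindle, had 1961 and 2063 normalised reads at P6 and 2595 and 1661 at P10, against 832 and 743 at P0, with log2 changes of 1.35 (limma adjusted p = 0.00493) and 1.40 (0.00476). Racgap1, a subunit of centralspindlin, had 2320 and 1668 at P6 and 3214 and 2509 at P10, against 865 and 934 at P0 (1.13 and 1.66, limma adjusted p = 0.00783 and 0.00198; without P0 replicate 1 or P0 replicate 2 the P6 call was lost, highest 0.0779). The Kif20a calls, and that of Racgap1 at P10, held in all 10 fits that left out 1 library.

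Rab11fip3, which brings recycling endosomes to the furrow, fell instead, with 177 and 206 normalised reads at P6 and 224 and 202 at P10, against 591 and 466 at P0 (log2 changes -1.46 and -1.30, limma adjusted p = 0.00335 and 0.00574). Its P6 call held in all 10 fits that left out 1 library, and its P10 call was lost without P0 replicate 1 (limma adjusted p = 0.0699). Anln, which encodes anillin, a furrow protein that binds septins and actin, was picked after its values were seen. It rose by 1.51 on the log2 scale at P6 (limma adjusted p = 0.00902) and by 1.60 at P10 (0.00778), and both calls were lost without either 1 of the P0 libraries (highest 0.0701 and 0.0651). The list count rested on the P0 libraries in the same way. Without P0 replicate 1, 1 member was called higher at P6 and 2 at P10, and without P0 replicate 2 the counts were likewise 1 and 2. Without 1 library of P2, P4 or P6 between 5 and 7 members were called higher at P6. Over all 10 such fits the members called higher were between 1 and 13 at P6 and between 2 and 14 at P10. Without P6 replicate 2 and P10 replicate 1 members were called in both directions at P6 and at P10. Such a fit has 1 library at each of these passages and called a larger share of all tested features than the full fit.

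Non-muscle myosin and its regulators pull on the actin that septin filaments lie along. Of 14 tested genes 1 was called lower at P2, 2 at P4, 3 at P6 and 3 at P10, with median log2 changes of -0.26, -0.26, -0.25 and -0.12. Limma called 2.07%, 5.52%, 10.5% and 8.25% of all tested features lower at these passages, and 4.15%, 9.24%, 21% and 17% in either direction. The count called higher by limma was 0 at each passage, with 0, 1, 0 and 1 at an unadjusted limma p under 0.05 and 1 gene at P4 by DESeq2. Without P6 replicate 2 and P10 replicate 1 there were also genes called higher at P6 and P10, beside those called lower. With 1 library left at each of these passages, that fit called a larger share of all tested features than the full fit. Myh10, the heavy chain of non-muscle myosin IIB, had 2031 and 2211 normalised reads at P6 and 2915 and 2673 at P10, against 6180 and 4733 at P0. All its later libraries were below both P0 libraries, with log2 changes of -1.35 at P6 (limma adjusted p = 0.00286, called in all 10 fits that left out 1 library) and -0.95 at P10 (0.0110). Myl9, a regulatory light chain, had 28.2 and 14.6 at P6 and 13.5 and 15.6 at P10, against 61.0 and 58.9 at P0 (log2 changes -1.51 and -1.97, limma adjusted p = 0.0217 and 0.00921). Diaph1, a formin that extends actin filaments, had 160 and 207 at P6 and 216 and 197 at P10, against 422 and 339 at P0 (-1.05 and -0.87, limma adjusted p = 0.0118 and 0.0240). The P10 call of Diaph1 held in 4 of the 10 fits that left out 1 library (highest limma adjusted p 0.189), and those of Myh10 and Myl9 in 9 and 8 (highest 0.112 and 0.0816). At P6 the call of Diaph1 was lost without P0 replicate 1 (limma adjusted p = 0.109), and that of Myl9 without P0 replicate 1, P0 replicate 2 or P6 replicate 2 (highest 0.130). The median at P6 was -0.07 without P6 replicate 2, and that at P10 was -0.04 without P10 replicate 2.

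Of 16 tested genes of actin and its stress fibres, 1 was called lower at P2, 1 higher and 1 lower at P4, and 1 higher and 3 lower at both P6 and P10, with median log2 changes of -0.18, -0.01, -0.43 and -0.42. In either direction 4.15%, 9.24%, 21% and 17% of all tested features were called at P2, P4, P6 and P10. Without P6 replicate 2 and P10 replicate 1 genes of this list were called in both directions at P6 and at P10. That fit leaves 1 library at each of these passages and called a larger share of all tested features than the full fit. The P10 median was -0.02 without P10 replicate 1 and -0.64 without P10 replicate 2, and the P6 median was -0.80 without P6 replicate 1 and -0.11 without P6 replicate 2. Without either 1 of the P0 libraries 0 were called higher and 1 lower at both passages. Zyx, which encodes zyxin of focal adhesions and stress fibres, had 117 and 139 normalised reads in P2, 80.1 and 93.2 in P4, 50.9 and 60.7 in P6 and 56.5 and 79.6 in P10, against 421 and 374 in P0. It fell by 2.81 on the log2 scale at P6 (limma adjusted p = 0.000532) and by 2.55 at P10 (0.000883), and both calls held in all 10 fits that left out 1 library. Actn4, a crosslinker of actin filaments, had 53.2 and 52.8 at P6 and 46.4 and 68.7 at P10, against 155 and 124 at P0 (log2 changes -1.37 and -1.28, limma adjusted p = 0.0114 and 0.0154). Tpm4, a tropomyosin along actin filaments, was the gene called higher, with 27443 and 22656 at P6 and 30165 and 19685 at P10, against 10450 and 10134 at P0 (1.28 and 1.24, limma adjusted p = 0.0143 and 0.0165). The calls of Actn4 and Tpm4 each held in 8 of 10 such fits, with highest limma adjusted p-values of 0.103 at P6 and 0.136 at P10 for Actn4, and of 0.102 at P6 and 0.120 at P10 for Tpm4.

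Of 11 tested tubulins and microtubule partners, 0 were called at P2 and P4 by limma and edgeR (by DESeq2 1 at P2 and 2 at P4, and at an unadjusted limma p under 0.05 3 and 2), 3 were called higher and 1 lower at P6, and 4 higher and 1 lower at P10, with medians of 0.02, 0.21, -0.00 and 0.21. Beside these, limma called 4.15%, 9.24%, 21% and 17% of all tested features in either direction. Tuba1b, an alpha-tubulin, had 8383 and 5073 normalised reads at P6 and 6115 and 8655 at P10, against 2700 and 2926 at P0 (log2 changes 1.21 and 1.37, limma adjusted p = 0.0174 and 0.0119). Stmn1, which sequesters tubulin, had 2166 and 1532 at P6 and 2097 and 1982 at P10, against 864 and 963 at P0 (0.997 and 1.16, limma adjusted p = 0.0105 and 0.00651). Clip1, which tracks growing microtubule ends, had 3841 and 4278 at P6 and 5336 and 2836 at P10, against 1687 and 1736 at P0 (1.24 and 1.18, limma adjusted p = 0.0150 and 0.0189). These 6 calls held in between 7 and 9 of the 10 fits that left out 1 library, without P0 replicate 1 the list had 0 calls at P6 and P10, and without P0 replicate 2 it had 0 at P6. The median at P6 was -0.22 without P6 replicate 1 and 0.23 without P6 replicate 2, and that at P10 was 0.45 without P10 replicate 1 and -0.03 without P10 replicate 2. Reads of tubulin genes can be shared between near-identical copies, and how they were counted is not known here.

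Of the 8 exocyst genes, whose complex tethers vesicles to the membrane and meets septins there, 0 were called by limma and edgeR against P0 at any passage. DESeq2 called 1 of them higher at P6 and 1 at P10, and at an unadjusted limma p under 0.05 there were 0, 1, 2 and 2 at P2, P4, P6 and P10. Limma called 4.15%, 9.24%, 21% and 17% of all tested features at these passages. At the unadjusted threshold the shares were 18.6%, 24.1%, 37.7% and 32.7%. Of the 3 genes that link the membrane to actin, Ezr (ezrin) was called higher, with 5674 and 4608 normalised reads at P6 and 7369 and 4547 at P10, against 2349 and 2495 at P0 (log2 changes 1.08 and 1.26, limma adjusted p = 0.0170 and 0.0105, lost in 3 and 2 of the 10 fits that left out 1 library, highest 0.120 and 0.0979), and Rdx and Msn were not called. Of 10 tested genes around Xiap and the caspases, which ARTS acts on in human cells, Birc3 was called at P2 and P4, and Birc3 and Diablo at P10, all higher. At P6 the count was 0 by limma, 2 by edgeR and 3 by DESeq2, and 4 at an unadjusted limma p under 0.05. Xiap, an inhibitor of caspases, had 434 and 392 at P6 and 438 and 365 at P10, against 282 and 300 at P0, and was not called. The P2, P4 and P10 calls of Birc3 held in 4 of 10 such fits each, with highest limma adjusted p-values of 0.330, 0.207 and 0.144.

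Markers of other cell types were followed in the same libraries. Of the epithelial markers the summed level was 64.0 to 109 normalised reads at P6 and 95.4 to 351 at P10, against 208 to 286 at P0, and most of it was Cdh1. Of the 5 epithelial markers, Krt18 was at 0 in 9 libraries, and Krt8 and Krt19 had at most 4.95 and 1.69 normalised reads. Epcam was low but went the other way, with 16.4 and 11.2 in P6 and 11.8 and 10.9 in P10, against 4.36 and 2.87 in P0. The leukocyte markers summed to 97.9 to 104 at P2, 174 to 199 at P4, 142 to 203 at P6 and 103 to 153 at P10, against 47.0 to 57.5 at P0, so that all later libraries were above P0 as for Septin4 and Septin9. Cd68 and Itgax made up most of the difference. Cd68 had 82.1 and 97.9 normalised reads in P4 and 93.9 and 111 in P6, against 32.2 and 37.4 in P0, and Itgax had 37.5 and 35.8 in P2, 71.2 and 78.1 in P4, 21.1 and 19.1 in P6 and 18.6 and 32.8 in P10, against 0 and 1.44 in P0. Cd14, 1 of these 5 markers, was at 0 in 9 libraries, and Ptprc, which defines leukocytes, ranged from 9.58 to 29.2. The fibroblast markers summed to 8931 to 9344 at P2 and 7494 to 7998 at P4, both above P0, and to 5441 to 6143 at P6 and 4391 to 4466 at P10, both below P0, against 6690 to 7131 at P0, with Thy1 at 0 in all libraries. Most of each sum was Dcn, with 7789 and 7157 in P2 and 3426 and 2937 in P10, against 5119 and 4943 in P0. Pdgfra was below both P0 libraries in every later library (527 and 826 in P10, against 1605 and 1429 in P0). Pdgfrb was above both in every later library (433 and 696 in P10, against 402 and 312 in P0). The endothelial and smooth muscle markers summed to at most 109 and 74.9 in any library. The part of these markers in the septin results was not tested.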

How the data were processed

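RNA from CHO-K1 cells was extracted with TRIzol, depleted of ribosomal RNA with Ribo-Zero, made into stranded TruSeq libraries and sequenced on a MiSeq, per the labels' protocols. The deposited signal values are read counts scaled by the authors with DESeq (version not given), according to the submitters' processing notes. Not given in the sources used here are the aligner, counter, genome build, annotation, use of strand and rule for reads shared between similar genes, so septins with similar sequence may share reads. Whole reads were recovered by dividing each column by its smallest step, within 0.01 reads. For P4 replicate 1 that step, 0.989, lies so near 1 that an automatic unit check could not classify it. Its values lay within 5.77e-05 reads of whole multiples of the step, and edgeR and DESeq2 results treat them as scaled whole reads too.

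Passages were compared with limma (version 3.58.1, R 4.3.3) on log2(deposited value + 1), with a trended prior, two-sided, for features with a mean of at least 10, with 5 residual degrees of freedom and Benjamini-Hochberg adjustment over all tested features at 0.05. Intervals are 95% intervals of the fitted change, and log2(value + 1) understates the change of low genes. Alternatives were TMM scaling and CPM scaling, edgeR 4.0.16 and DESeq2 1.42.0 on recovered reads, pseudocounts of 0.5 and 5, a minimum mean of 50 or none, fits without single libraries or without P6 replicate 2 and P10 replicate 1, fits of the compared passages only, and the replicate number as a block. With 2 libraries against 2, an exact permutation test of 1 gene cannot go below 0.333, so none was used. The steps were tested on simulated data.

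Of 20050 features named by a gene number, 16386 were matched to symbols through RefSeq genes of assembly CriGri-PICRH-1.0, used for names and gene neighbours only. The genes named were all septins, up to 3 members of each related list with the smallest F test p, the 3 genes most like each septin, the septin neighbours called at P6 or P10 and Anln. The members and lists were chosen with earlier results of these data known.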

Additional observations from a re-analysis of the deposited data

How the results depend on the processing

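With 2 libraries a passage, 1 library often decided a call, and a fit without 1 library assumes that the remaining one varies like the other passages. Duplicates lay farther apart at P6 and P10 than at P0, P2 and P4. A fit without a P6 or P10 library can therefore understate the spread there and give too many calls. The 5 septins written as dates had at least 173 reads in each library, but Septin1, Septin3, Septin12 and Septin14 had as few as 9, 15, 5 and 9, which limits their values. Transcript lengths were not used, and other genes in a date row cannot be seen. The cause of the changes below was not tested.

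Of the 5 septins, the number called in the fits without 1 library each was 0 to 2 for P2 against P0 (2 in the full fit), 0 to 2 for P4 (2), 1 to 4 for P6 (2), 0 to 3 for P10 (1), 0 to 1 for P6 against P4 (0), 0 to 1 for P10 against P6 (0) and 0 to 4 for any passage difference (2). With P6 replicate 2 and P10 replicate 1 both left out, more of the 5 were called at P6 and P10 against P0. So was a larger share of all tested features. That fit leaves 1 library at each of these passages, so its counts are not set beside the others. Ranges of the count over all tested features are given at the end. For P2 against P0 the number of the 5 septins called was 0 with CPM scaling, 1 with edgeR and 0 with no filter. For P10 against P0 it was 2 with DESeq2 and 0 with only the passages compared, where Septin9 had an adjusted p of 0.153. DESeq2 called Septin7 at P6 (adjusted p = 0.00531) and P10 (0.00398), which edgeR did not (0.0530 and 0.0543). With CPM scaling limma called Septin7 at P6 (adjusted p = 0.0483). At P2 and at P4, 2 of the 21 alternatives called Septin7. The Septin9 change at P6 passed in all 21 alternatives.

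The replicate numbers were not used to pair the libraries in the main fit. Deviations from the passage means correlated between -0.67 (P6 and P10) and 0.23 (P2 and P10) over the pairs of passages. Such correlations cannot show whether libraries of the same number share a culture. With the replicate block the number called was 0 for P2 against P0, 1 for P6 against P0 and 1 for any difference.

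CPM scaling gave a median change of all features at P6 against P0 of 0.15, where the deposited scaling gave -0.07. The change of Septin2 turned sign under it, to -0.0530 at P4 and 0.0911 at P6, and under TMM scaling to 0.0125 at P2. It turned to 0.127 at P6 without both P6 replicate 2 and P10 replicate 1. In the fits without 1 library it ranged from -0.0505 to 0.0378 at P2, from -0.0664 to 0.0934 at P4 and from -0.378 to 0.127 at P6, and so took both signs. The change of Septin10 at P2 ranged from -0.0130 to 0.191.

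The number of all tested features called was 561 for P2 against P0 (61 to 1578 without 1 library, 261 to 4616 under the other settings), 1250 for P4 (143 to 2783, 767 to 5829), 2841 for P6 (412 to 5441, 2024 to 6595) and 2301 for P10 (315 to 4738, 49 to 6256). It was 0 for P4 against P2 (0 to 9, 0 to 569), 0 for P6 against P4 (0 to 3676, 0 to 3712), 0 for P10 against P6 (0 to 2936, 0 to 3610) and 1492 for any difference (96 to 6268, 682 to 8628).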
